A study of Rattus norvegicus with 19 samples.

Results

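The genes described here encode the nuclear subunits of respiratory complex III, complex IV and ATP synthase, together with cytochrome c. They were found by name: all array probes whose gene name begins with Uqcr or Atp5, or with Cox followed by a digit from 4 to 8, plus Cycs, Cyc1 and Ndufa4, with Cox4i2 left out of the set. This gave 65 probes for 44 genes, of 45598 probe names on the array. Of the 44 genes, 42 were measured, with 61 probes between them, among 24217 genes measured in all. Cox7b2 and Cox8c, isoforms known from testis, were well above background on none of the 19 arrays and have no level here. The names also caught 3 genes that encode no subunit: Atp5s and Atp5sl, now called Dmac2l and Dmac2, and the pseudogene Cox6c-ps1. Conversely, the complex IV subunit Cox6b1 sits on the array under the name LOC688869 and was missed; its differences in the 3 comparisons were -0.14 ± 0.16 (SE), -0.00 ± 0.14 and -0.15 ± 0.16, none past the test. Gene names below are those of the array's design, in which Atp5b, Atp5d and Atp5g2, for example, stand for the genes now called Atp5f1b, Atp5f1d and Atp5mc2.

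The RNA came from renal cortex of male Crl:CD (SD) rats, 1 array per rat. Sham rats (n = 5) received vehicle and normal feed. DKD rats (n = 7) received streptozotocin, which kills pancreatic beta cells, at 65 mg/kg into a vein, and normal feed. DKD+enarodustat rats (n = 7) received the same dose of streptozotocin and feed mixed with enarodustat at 0.01% by weight. Enarodustat blocks HIF prolyl hydroxylases, enzymes that oxygen keeps active and that lead hypoxia-inducible factor (HIF) to be degraded. Injection preceded grouping by 7 days, kidneys were taken 14 days after grouping, and the diabetic groups were drawn from 19 injected rats and matched on glucose and weight. Tissue was thus taken early in a chemically induced diabetes, and the drug was given only to diabetic rats.

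Complex III passes electrons from ubiquinol to cytochrome c, a small soluble carrier between the mitochondrial membranes. Complex IV, cytochrome c oxidase, takes them from there to oxygen, and both complexes pump protons. ATP synthase lets the protons return through its membrane part, Fo, and uses the flow to turn the F1 head that makes ATP. The proximal tubule and thick ascending limb of the kidney are packed with mitochondria and depend on this chain for transport of salt and solutes. Core subunits of complexes III and IV and of Fo are encoded in mitochondrial DNA; none of the 13 mitochondrially encoded proteins could be matched by name on this array, so only nuclear genes are described.

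All values are log2 spot signals after subtraction of the array's own 75th percentile, so a value of 0 is the level of that percentile, and a difference of 1 is 2-fold. They rank no gene against another, because each probe has its own brightness. The arrays had between 54.38% and 67.26% of probes well above background, with a mean of 64.3% ± 2.61 (SD, n = 5) in Sham, 62.8% ± 4.87 (n = 7) in DKD and 58.9% ± 2.87 (n = 7) in DKD+enarodustat. There were 3 slides, each with 2 rows of arrays. Row 1 held the 5 Sham arrays and 5 of the DKD arrays. Row 2 held the other DKD arrays (replicates 2 and 4) and the 7 DKD+enarodustat arrays. Row 2 arrays had 58.3% of probes above background on average and row 1 arrays 64.9%. DKD+enarodustat against Sham is thus also row 2 against row 1, and the treatment and the row cannot be told apart there except through those 2 DKD arrays. Sham samples were well above background for all 8 proximal tubule markers and all 4 markers of the thick ascending limb, as were the other groups.

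No member was saturated on any array, and all 42 representative probes were well above background on all 19. The median SE of the members' difference between DKD and Sham was 0.06, against 0.15 over all genes tested, so small differences could be resolved for them. The plot of each member's deviation from its Sham mean shows more blue in most diabetic columns than in the Sham columns, though unevenly. The mean level over the 42 members was 3.75 to 3.84 on the Sham arrays, 3.65 to 3.86 on the DKD arrays and 3.51 to 3.77 on the DKD+enarodustat arrays. DKD replicate 1 lay above every Sham array, and DKD+enarodustat replicate 4 was the lowest.

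**Figure D1:**
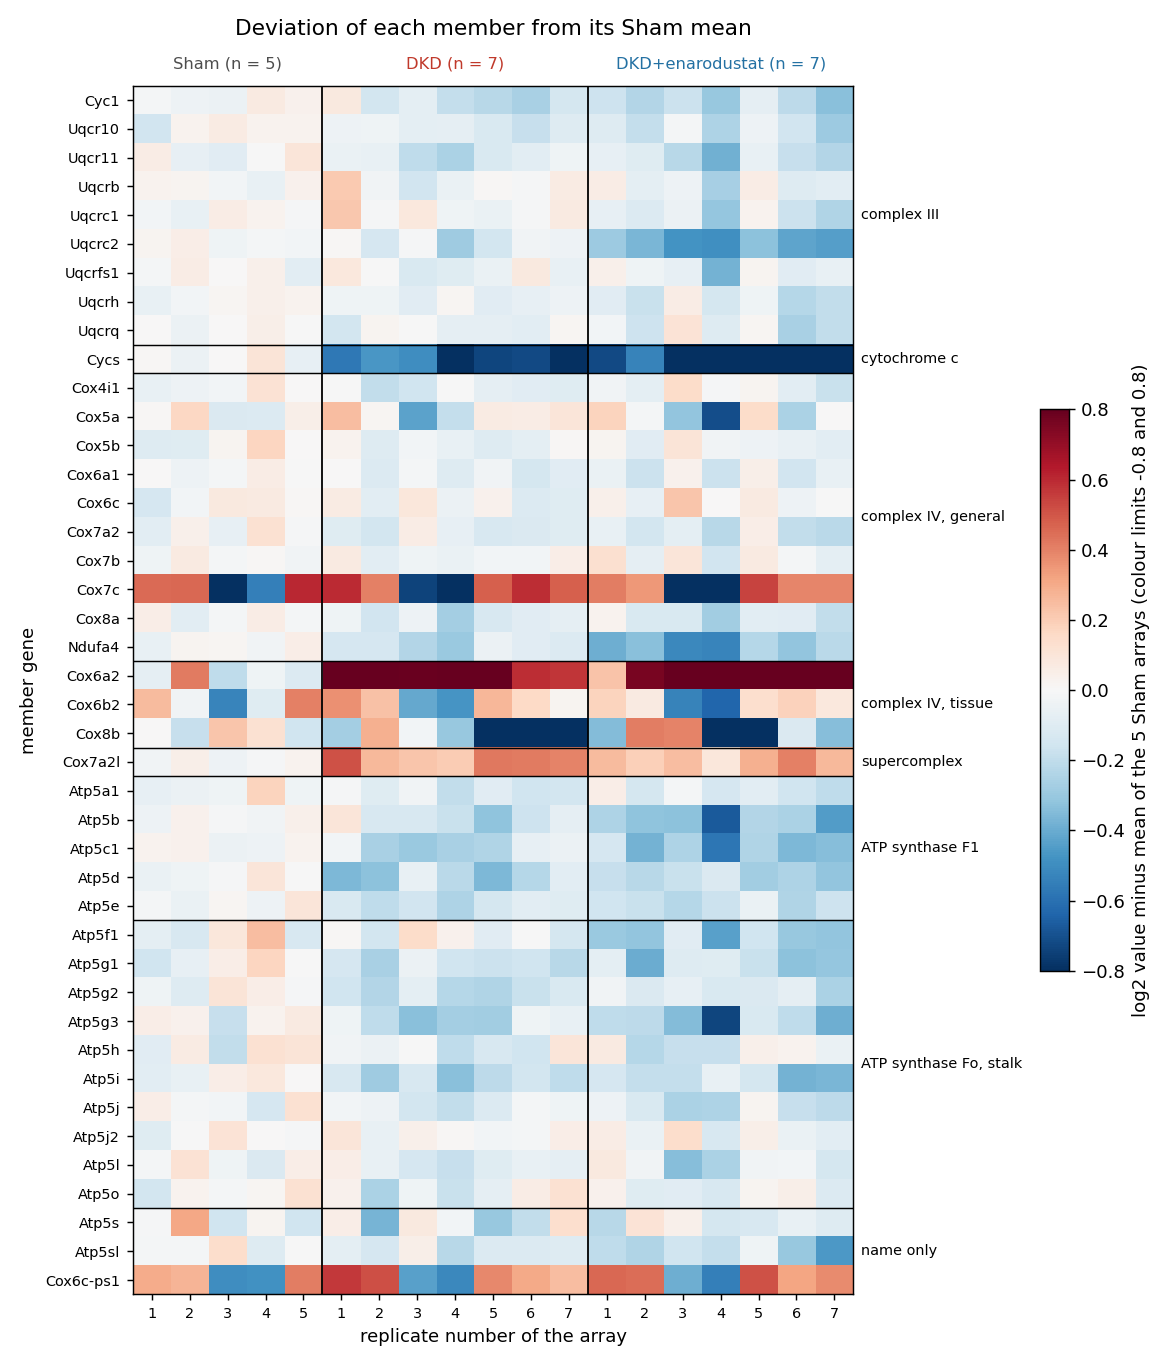
Colour gives each array's log2 value minus the mean of the 5 Sham arrays for each of the 42 measured members (rows, grouped by role) on 19 arrays (columns, grouped as Sham, DKD and DKD+enarodustat, by replicate number). Cycs is blue on all 14 diabetic arrays, Cox7a2l is red on all 14, and Cox7c and Cox6c-ps1 follow the slide, with arrays 3 and 4 of every group low.

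Promoter sequences were available from RefSeq (build GRCr8) for 36 of the 44 members. They are shown for Cycs, Uqcrc2 and Cox7a2l, picked from the results described below. Cycs was among the members called lower in DKD than in Sham, and Cox7a2l among those called higher. Uqcrc2 was the only member called between DKD+enarodustat and DKD. Capitals mark matches, on either strand, to GCATGCG (the core bound by NRF1, a regulator of respiratory genes), CCGGAA (bound by ETS factors such as GABPA), AAGGTCA (estrogen-related receptors) and ACGTG or GCGTG (the HIF core). Each line gives the 250 bases before the annotated start of the gene, 5′ to 3′ on the gene's strand: Cycs at chr4:80984768-80985017 on the minus strand, Uqcrc2 at chr1:184598990-184599239 and Cox7a2l at chr6:16936324-16936573, both on the plus strand.
Cycs: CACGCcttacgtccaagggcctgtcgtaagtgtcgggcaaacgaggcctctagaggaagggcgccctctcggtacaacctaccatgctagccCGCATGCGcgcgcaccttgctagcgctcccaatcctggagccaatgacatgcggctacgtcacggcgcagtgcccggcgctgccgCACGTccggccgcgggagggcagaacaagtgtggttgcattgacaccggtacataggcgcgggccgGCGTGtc
Uqcrc2: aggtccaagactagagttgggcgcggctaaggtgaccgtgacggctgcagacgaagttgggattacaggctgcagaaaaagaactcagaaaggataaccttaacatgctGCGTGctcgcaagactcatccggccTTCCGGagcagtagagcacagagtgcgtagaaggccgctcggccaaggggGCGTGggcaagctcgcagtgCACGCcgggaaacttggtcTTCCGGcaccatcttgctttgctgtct
Cox7a2l: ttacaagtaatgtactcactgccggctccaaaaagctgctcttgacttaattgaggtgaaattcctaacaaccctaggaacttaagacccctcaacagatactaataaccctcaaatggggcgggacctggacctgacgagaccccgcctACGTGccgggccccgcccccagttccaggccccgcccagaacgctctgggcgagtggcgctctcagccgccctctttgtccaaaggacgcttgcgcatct
In Cycs the NRF1 core matched on both strands within the same 8 letters, from -158 to -151 relative to the start. Cycs also held ACGTG from -73 to -69, and GCGTG from -250 to -246 and from -7 to -3. Uqcrc2 held the ETS letters at 2 places, from -116 to -111 and from -27 to -22, and GCGTG at 3. Cox7a2l held 1 match, ACGTG, from -100 to -96. Over windows of 300 bases, from 250 before to 50 after the start, the NRF1 core lay in 9 of 36 member promoters (25%) and in 3.33% of 33469 promoters of that length. The ETS letters lay in 14 of 36 (38.9%) against 15%, the receptor letters in 6 (16.7%) against 4.61%, and either form of the HIF core in 23 (63.9%) against 41.6%. Matches of different motifs may overlap and were counted for each. A match is a description of letters, not of binding.

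The first comparison, DKD against Sham, asks what differed between diabetic and Sham kidneys without enarodustat. All diabetic rats and no Sham rats received streptozotocin, so the diabetic state and streptozotocin itself cannot be told apart. Of the 42 members, 7 passed the test (limma, Benjamini-Hochberg adjusted p below 0.05 over 24217 genes): 2 were higher and 5 lower. That is 16.7%, beside 17.1% of all genes tested, of which 8.02% were higher and 9.07% lower. The count of members called is thus near the background on this scaling of the arrays; it was above it under the quantile scalings and in the deposited value table, as given below. The members' median difference was -0.08, with 34 of 42 below 0, beside a median of -0.02 over all genes, 12859 of 24217 of them below 0. With slide row as a covariate 31 members lay below 0 and 11 above. Cytochrome c and 4 subunits of ATP synthase fell, while Cox7a2l and the muscle isoform Cox6a2 rose; no subunit of complex III and none of the general isoforms of complex IV passed. With slide row as a covariate, without DKD replicates 2 and 4, or with no filter on dim probes, 3 calls were left (Cox6a2, Cox7a2l and Atp5d); within row 1, or with each array centred on its median, 3 were left as well (Cox6a2, Cox7a2l and Cycs). Because the samples are bulk tissue, fewer cells of a type and less RNA per cell cannot be told apart. In the same arrays, 4 of 8 proximal tubule markers were lower and 2 higher in DKD, with a mean level over the list of 4.37 to 4.49 in Sham and 4.09 to 4.48 in DKD. Of 4 markers of the thick ascending limb, Umod and Egf were lower, and the list's level was 3.48 to 3.81 in Sham and 2.83 to 3.38 in DKD. The part of these tubule markers in the members' differences was not tested.

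Cycs, the somatic cytochrome c that carries electrons from complex III to complex IV, fell further than any other member that was called. Its Sham values were 5.59, 5.53, 5.58, 5.68 and 5.51. The DKD arrays ran from 4.59 through a median of 4.86 to 5.11. Every DKD array lay below every Sham array, which held in this direction for 5.83% of all genes. The difference was -0.68 ± 0.22 (SE; 1.60-fold lower; adjusted p = 0.0413 by limma). DKD+enarodustat replicate 6, whose value of 3.22 stood far below the other arrays of its group (4.62 to 5.04), enters this comparison through the shared spread alone; with that array left out the adjusted p was 7.91e-05. Over the 19 fits that each left out 1 array, the adjusted p ran from 7.91e-05 to 0.0874 and passed in 9. With the replicate number as a block the difference was -0.54 (adjusted p = 0.0791), and with the slide as a block -0.61 (adjusted p = 0.0505).

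A further Cycs probe gave the same picture without the outlying array. The probe above lies at chr4:78825928-78825987 and the further one at chr4:78826694-78826753, in the coordinates of build rn4 as the array files give them. The further probe read 3.93, 3.80, 3.88, 3.99 and 3.97 in Sham, and from 2.84 to 3.47 in DKD, again without overlap. Its difference was -0.77 ± 0.10 (adjusted p = 5.55e-05, over 30259 probes). Within slides, the difference of the first probe was -0.50 on slide 1 and -0.79 on slide 2, and within row 1 it was -0.66 ± 0.08 (adjusted p = 0.000782). When all arrays were fitted, the outlying one included, and slide row was a covariate, it was -0.66 ± 0.25 and did not pass (adjusted p = 0.0894).

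Cox7a2l, a relative of the complex IV subunit Cox7a2 that helps to join complexes III and IV into supercomplexes, rose. Sham values were 2.92, 3.00, 2.91, 2.94 and 2.98, and DKD values ran from 3.16 through 3.35 to 3.46. The groups did not overlap, as was so in this direction for 4.85% of all genes. The difference was 0.35 ± 0.06 (1.27-fold; adjusted p = 0.00103), it passed in all 19 fits that left out 1 array, and it was 0.39 ± 0.07 within row 1. Under quantile normalisation it was 0.26, and among the deposited log2 values 0.17 (adjusted p = 0.00458). Cox7a2, its relative in complex IV itself, had a difference of -0.08 ± 0.06 (adjusted p = 0.41).

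Cox6a2, the isoform of subunit 6a found in heart and skeletal muscle, rose from a very low level. Its Sham values were -5.50, -5.01, -5.63, -5.46 and -5.53, and its DKD values ran from -4.85 through -4.22 to -4.00. Every DKD array was above every Sham array, although Sham replicate 2 stood apart from its group. The difference was 1.03 ± 0.20 (2.05-fold; adjusted p = 0.00152), but only 0.42 with a background-corrected signal (normexp and quantile normalisation) and 0.36 among the deposited log2 values, where it still passed. Its further probe also did not overlap between these groups, at -5.96 to -5.69 in Sham and -5.37 to -4.31 in DKD. Of 8 measured markers of striated muscle 0 were called by limma, 0 also at an unadjusted p under 0.05. The list's level was -6.20 to -5.47 in Sham and -6.10 to -5.25 in DKD. The 8 differences ran from -0.33 to 0.44, 4 above 0 and 4 below, with a median SE of 0.32. For Ckm, Mb and Tnni2 they were -0.12, 0.05 and -0.03. Some markers of fat were called. Of 6 measured adipocyte markers 3 were higher in DKD (Fabp4 by 3.58 ± 0.91, Cfd by 3.66 ± 1.16 and Lep by 1.85 ± 0.47), none was lower, and the list's level was -5.19 to -4.66 in Sham and -4.23 to -1.25 in DKD. Of the brown fat markers, Cidea was higher by 2.09 ± 0.29 and Ucp1 differed by -0.14 ± 0.37. The part of muscle or fat in the Cox6a2 difference was not tested.

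ATP synthase held the other calls. All 5 subunits of its F1 head lay below their Sham level on average in DKD, with differences from -0.23 to -0.10, and 2 passed. Atp5d, the delta subunit of the central stalk, read 3.13, 3.15, 3.18, 3.28 and 3.18 in Sham and 2.82 to 3.13 in DKD (median 2.96), with a difference of -0.23 ± 0.06 (adjusted p = 0.0151). It passed in all 19 fits that left out 1 array, and lost its call within row 1 (adjusted p = 0.108) and with median centring (0.0801). Atp5e, the epsilon subunit beside it, read 5.74, 5.70, 5.77, 5.71 and 5.85 in Sham and 5.51 to 5.67 in DKD (median 5.62), with a difference of -0.15 ± 0.05 (adjusted p = 0.0455). Neither gene's groups overlapped, the highest DKD array of Atp5d lying just under the lowest Sham array. Atp5e passed in 5 of the 19 fits, and its further probe, placed on chromosome 14 of rn4, had a difference of -0.27 ± 0.06 (adjusted p = 0.00405). The catalytic beta subunit Atp5b read 3.62, 3.70, 3.66, 3.64 and 3.71 in Sham and 3.34 to 3.76 in DKD (median 3.54), a difference of -0.13 ± 0.08 that did not pass (adjusted p = 0.313).

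In the membrane part and outer stalk, 9 of 10 subunits had a difference below 0, and 2 fell. Atp5g2 is 1 of 3 genes for the same mature c subunit, the ring that turns in the membrane. It read 5.45, 5.38, 5.59, 5.54 and 5.47 in Sham and 5.24 to 5.41 in DKD (median 5.31), overlapping by little, with a difference of -0.18 ± 0.05 (adjusted p = 0.0274). All 4 of its probes had a difference between -0.18 and -0.12. Atp5g2 passed in 15 of the 19 fits that left out 1 array, and lost its call with the mean of its probes (adjusted p = 0.0546), with median centring (0.138), within row 1 (0.144) and once the row entered the fit (0.0858). Atp5g1 and Atp5g3, the other genes for the c subunit, both had a difference of -0.17 and did not pass (adjusted p = 0.129 and 0.251). Atp5i, the small subunit e, read 6.22, 6.24, 6.35, 6.38 and 6.30 in Sham and 5.96 to 6.17 in DKD (median 6.10), without overlap and with a difference of -0.20 ± 0.06 (adjusted p = 0.0357). Atp5i lost its call with the replicate number as a block (adjusted p = 0.101), under quantile normalisation (0.0505) and in the deposited value table (0.126).

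Complex III differed little between DKD and Sham on this scaling and on the probes that stood for its genes. Under both quantile scalings and in the deposited value table, Cyc1, Uqcr11, Uqcrc2, Uqcrh and Uqcrq were called lower on those probes. The dimmer probe of Uqcrb was lower, as given below. The 9 subunits of complex III had differences from -0.14 for Cyc1, the heme-bearing cytochrome c1, to 0.04 for the core protein Uqcrc1. Of these subunits, 0 of 9 passed limma's test (1 at an unadjusted p under 0.05). Cyc1 read 4.98, 4.95, 4.94, 5.07 and 5.02 in Sham and 4.74 to 5.07 in DKD (median 4.85), with overlapping groups and an adjusted p of 0.153. Of the 10 general subunits of complex IV, 0 passed on this scaling (1 at an unadjusted p under 0.05). Cox4i1, Cox5b, Cox6c, Cox7a2 and Ndufa4 were called lower under both quantile scalings and in the deposited value table. On the present scaling 9 of the 10 lay below 0. The exception is Cox7c at 0.14 ± 0.37, whose probe was low on slide 2 in every group by 0.89 against the group means. Cox4i1, the main isoform of regulatory subunit 4, read 5.42, 5.44, 5.46, 5.60 and 5.49 in Sham and 5.28 to 5.48 in DKD (median 5.39), a difference of -0.09 ± 0.06 (adjusted p = 0.367). Ndufa4, once assigned to complex I and now counted with complex IV, had a difference of -0.15 ± 0.06 (adjusted p = 0.13); with the replicate number as a block it was -0.18 and passed (adjusted p = 0.0319).

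**Figure D2:**
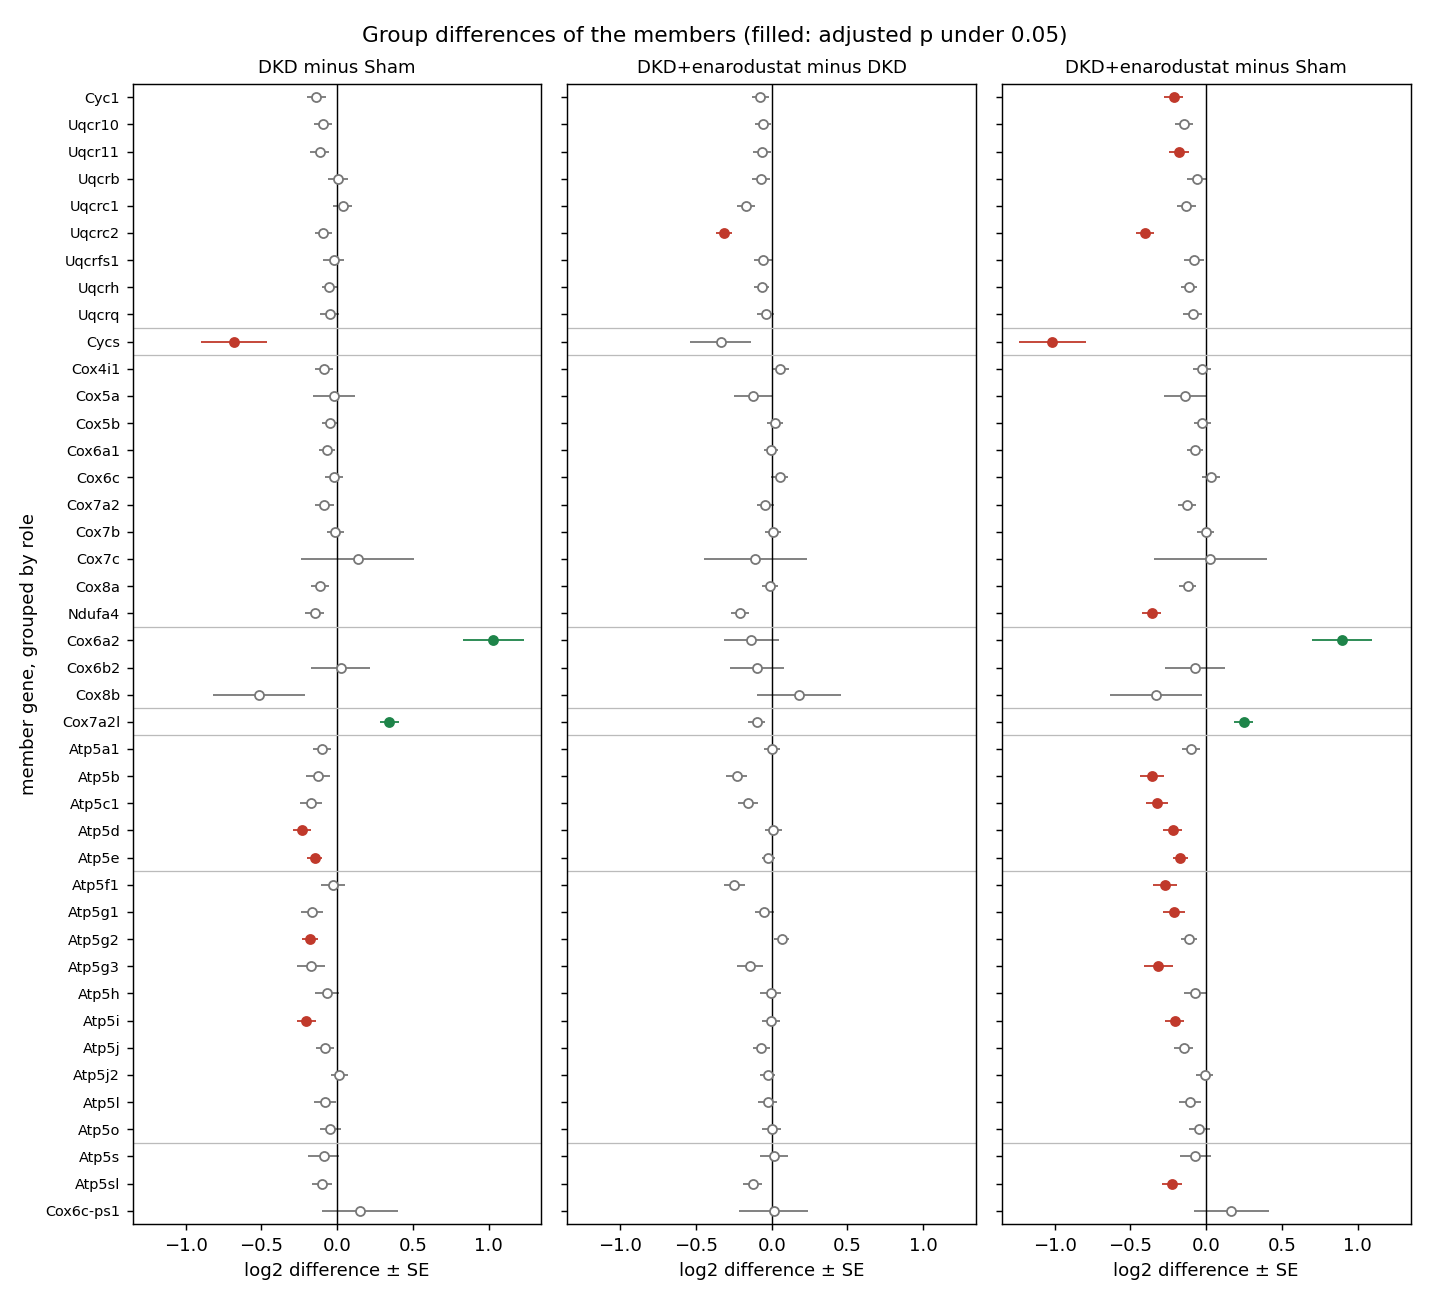
Points give the log2 difference between group means for each of the 42 members, bars give ± 1 SE from limma, and filled points have an adjusted p below 0.05 (red lower, green higher). From left to right 7, 1 and 16 members are filled, and Cycs and Cox6a2 lie farthest from 0 among the filled points on the left.

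The second comparison, DKD+enarodustat against DKD, asks what the drug changed in diabetic kidneys. Here 1 of 42 members passed (6 at an unadjusted p under 0.05), Uqcrc2, beside 2.00% of all genes (1.07% higher and 0.933% lower). The members' median difference was -0.05, beside -0.02 over all genes. Of the 42 members 31 lay below 0, and of all 24217 genes 13492 did. With slide row as a covariate, and also within row 2, 22 members lay below 0 and 20 above. None of the 7 members called between DKD and Sham was called in this comparison. The differences of Cycs, Cox7a2l, Cox6a2, Atp5d, Atp5e, Atp5g2 and Atp5i were -0.34 ± 0.20, -0.10 ± 0.06, -0.13 ± 0.18, 0.01 ± 0.06, -0.02 ± 0.04, 0.07 ± 0.05 and -0.01 ± 0.06. Leaving out DKD+enarodustat replicate 6, whose Cycs value stood apart from its group, brought the Cycs difference to -0.11.

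Uqcrc2 encodes core protein 2, a large subunit on the matrix side of complex III that holds the complex together. It read 2.52 to 2.72 on the DKD+enarodustat arrays (median 2.59) and 2.73 to 3.02 on the DKD arrays (median 2.97). The lowest DKD array, replicate 4, lay next to the highest treated array, and no array crossed, as was so in this direction for 0.566% of all genes; no member lay wholly higher, beside 0.685%. The difference was -0.31 ± 0.05 (1.24-fold lower; adjusted p = 0.00289). The call held in all 19 fits that left out 1 array, with an adjusted p of 0.000799 to 0.00946, and the difference was -0.27, -0.34 and -0.32 on slides 1, 2 and 3. Slide row moved with it: DKD replicates 2 and 4, in the row of the treated arrays, read 2.88 and 2.73. With slide row as a covariate, and within row 2, the difference was -0.19 and did not pass (adjusted p = 0.408 and 0.87). Leaving out DKD replicates 2 and 4 put every DKD array in row 1 and every treated array in row 2. That fit cannot tell the treatment from the row, and Uqcrc2 still passed in it. Its partner core protein Uqcrc1 had a difference of -0.17 ± 0.06 (adjusted p = 0.167), and all 9 subunits of complex III lay below 0, from -0.31 to -0.04. A single probe measures each core protein.

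Ndufa4 came next. It read 4.41 to 4.72 in DKD+enarodustat (median 4.60) and 4.64 to 4.89 in DKD (median 4.80), so the groups overlapped a little. The difference was -0.21 ± 0.06 and missed the threshold (adjusted p = 0.0788). With the replicate number as a block it passed (adjusted p = 0.0308), as with the slide as a block (0.00717), and it was -0.23, -0.25 and -0.17 on slides 1, 2 and 3. With slide row as a covariate it was -0.14 (adjusted p = 0.737). Atp5b, at 2.99 to 3.43 with a median of 3.34, had a difference of -0.23 ± 0.07 (adjusted p = 0.115), and Atp5f1, subunit b of the outer stalk, one of -0.25 ± 0.07 (adjusted p = 0.0944). Atp5f1 passed with the slide as a block (adjusted p = 0.0372) but not with the replicate number as a block (0.081) or with the slide's row as a covariate (0.65). With the slide as a block 3 members passed (7.14%), Uqcrc2, Ndufa4 and Atp5f1, beside 3.78% of all genes. Cox4i1 read 5.30 to 5.63 (median 5.46), a difference of 0.06 ± 0.05 (adjusted p = 0.741). Cyc1 read 4.66 to 4.92 (median 4.78), a difference of -0.08 ± 0.06.

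**Figure D3:**
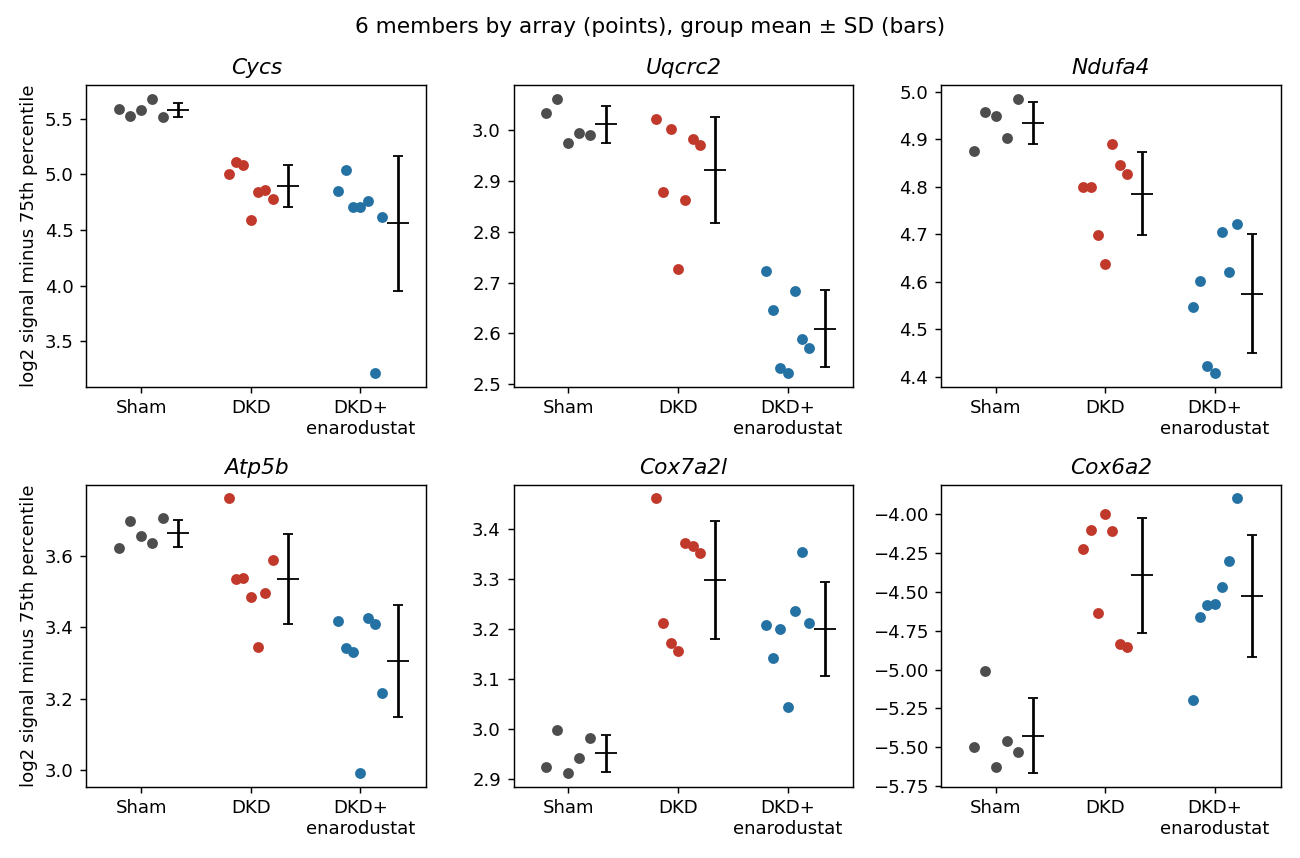
Each point is 1 array's log2 signal minus the array's 75th percentile, for 6 members on the 5 Sham, 7 DKD and 7 DKD+enarodustat arrays, and the bars give the group mean ± SD; each panel has its own axis. Cycs is lower and Cox7a2l higher on every diabetic array than on any Sham array, the Uqcrc2 values of the treated arrays lie below all others, and 1 treated array has a Cycs value of 3.22.

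The third comparison, DKD+enarodustat against Sham, sets the treated diabetic kidney against the healthy one and shares its Sham arrays with the first and its treated arrays with the second. Of 42 members 16 passed, 2 higher and 14 lower, or 38.1% beside 26.1% of all genes (10% higher and 16% lower). In 7 of the lower members and 1 of the higher no treated array overlapped with Sham, beside 8.87% and 5.51% of all genes. The median difference was -0.12, beside -0.04 over all genes. Of the 42 members 37 lay below 0, and of all 24217 genes 13432 did. With slide row as a covariate 28 members lay below 0 and 14 above. With slide row as a covariate 1 of the 16 calls was left, Cox7a2l, and the median was -0.05; of all genes, 1031 passed in place of 6311.

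ATP synthase gave 8 of the 14 lower calls, all 15 of its measured subunits lying below 0. In the F1 head these were Atp5b (-0.36 ± 0.08, adjusted p = 0.00245), the gamma subunit Atp5c1 (-0.33 ± 0.07, adjusted p = 0.00312), Atp5d (-0.22 ± 0.06) and Atp5e (-0.17 ± 0.05). The treated arrays of Atp5c1 ran from 3.07 to 3.51 (median 3.31), against 3.67, 3.68, 3.60, 3.60 and 3.67 in Sham, without overlap. Atp5b and Atp5d did not overlap with Sham either, while Atp5e did. Atp5a1, the alpha subunit, differed by -0.10 ± 0.06 and did not pass. In Fo and the outer stalk the calls were Atp5f1 (-0.27 ± 0.08), Atp5g1 (-0.21 ± 0.07), Atp5g3 (-0.32 ± 0.10) and Atp5i (-0.21 ± 0.06), each with groups that overlapped. Atp5f1 read 3.95, 3.90, 4.12, 4.27 and 3.90 in Sham and 3.60 to 3.94 in the treated rats (median 3.73).

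In complex III, 3 of 9 subunits fell: Uqcrc2 by 0.40 (SE 0.06, adjusted p = 6.97e-05), Cyc1 by 0.21 (SE 0.06, adjusted p = 0.0169) and the small subunit Uqcr11 by 0.18 (SE 0.06, adjusted p = 0.0489). Uqcr11 passed in 5 of the 19 fits that left out 1 array (adjusted p up to 0.121), and lost its call with the mean of its probes, with no filter on dim probes and without DKD replicates 2 and 4. Uqcrc2 had read 3.04, 3.06, 2.98, 2.99 and 2.99 in Sham, all above the highest treated value of 2.72. In complex IV only Ndufa4 of the 10 general subunits was called lower on this scaling of the arrays. Ndufa4 read 4.88, 4.96, 4.95, 4.90 and 4.99 in Sham against at most 4.72 in the treated rats, a difference of -0.36 ± 0.06 (adjusted p = 0.000514). Under quantile normalisation Cox4i1, Cox5b, Cox6c, Cox7a2, Cox7b and Cox8a were called lower too, as was every subunit of complex III. Cycs fell by 1.02 (SE 0.22, adjusted p = 0.00238), and by 0.86 on its further probe (adjusted p = 1.03e-05), with no overlap on either. Leaving out DKD+enarodustat replicate 6 brought the first to -0.79. Of the name-only genes, Atp5sl, an assembly factor of complex I, fell by 0.23 (adjusted p = 0.0189). Cox7a2l and Cox6a2 were higher, by 0.25 ± 0.06 (adjusted p = 0.00778) and 0.90 ± 0.20 (adjusted p = 0.00277). Cox7a2l read 3.04 to 3.35 (median 3.21), above every Sham array, but its difference was 0.13 under quantile normalisation (adjusted p = 0.144) and 0.05 in the deposited value table (adjusted p = 0.41). Treated Cox6a2 values ran from -5.20 to -3.90 (median -4.58) and overlapped with Sham through DKD+enarodustat replicate 1; 2 of 6 adipocyte markers were higher in this comparison. With the replicate number as a block 14 members passed, Atp5i and Cyc1 no longer among them.

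Several kept probes of a gene did not always move alike. Of 17 members with several kept probes, all probes of a gene had the same sign in 13 between DKD and Sham. The counts were 10 between DKD+enarodustat and DKD and 14 between DKD+enarodustat and Sham. No gene had probes called in opposite directions, but between DKD+enarodustat and DKD no probe of these genes was called at all. The probes of Uqcrb, a small subunit of complex III, differed in sign and size. Between DKD and Sham its brighter probe differed by 0.01 and its dimmer probe by -0.27 ± 0.08 (limma adjusted p = 0.0305). Cox7c, Cox6c-ps1, Cox6b2, Cox8b and Cox5a had offsets between slides of 1.31, 0.90, 0.63, 0.61 and 0.41 in their representative probes, against a median of 0.10 over the 42 members. Cox5a has a further probe, which differed by -0.10 ± 0.06 between DKD and Sham.

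The scaling of the arrays changed how many members passed. Between DKD and Sham, 22 of 42 passed under quantile normalisation (2 higher, 20 lower; 6 of the 7 calls above among them), 22 after normexp correction and quantile scaling, and 27 in the deposited value table (2 higher, 25 lower), while 3 passed with each array centred on its median. Of all genes, 17.4%, 18.9%, 31.6% and 13.7% passed in these 4 fits, beside 52.4%, 52.4%, 64.3% and 7.14% of the members, so the members' share was above the background in the first 3 and below it in the last. The corresponding median differences were -0.18, -0.18, -0.15 and -0.09. The medians of all genes moved less, to -0.05, -0.02, -0.03 and -0.03. Between DKD+enarodustat and DKD the counts were 3, 4, 9 and 1 (7.14%, 9.52%, 21.4% and 2.38%), beside 1.80%, 2.40%, 9.64% and 1.20% of all genes. Between DKD+enarodustat and Sham they were 33, 33, 34 and 15 (78.6%, 78.6%, 81.0% and 35.7%), beside 28.1%, 29.8%, 44.8% and 24.1%. The calls added under the quantile scalings and in the deposited table were all of lower values. They lay in complex III and in the general complex IV subunits as well as in ATP synthase, with 2 besides in the deposited table: Atp5sl between DKD and Sham, and Cox7a2l between DKD+enarodustat and DKD. Cox4i1, for example, passed between DKD and Sham under quantile normalisation.

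**Figure D4:**
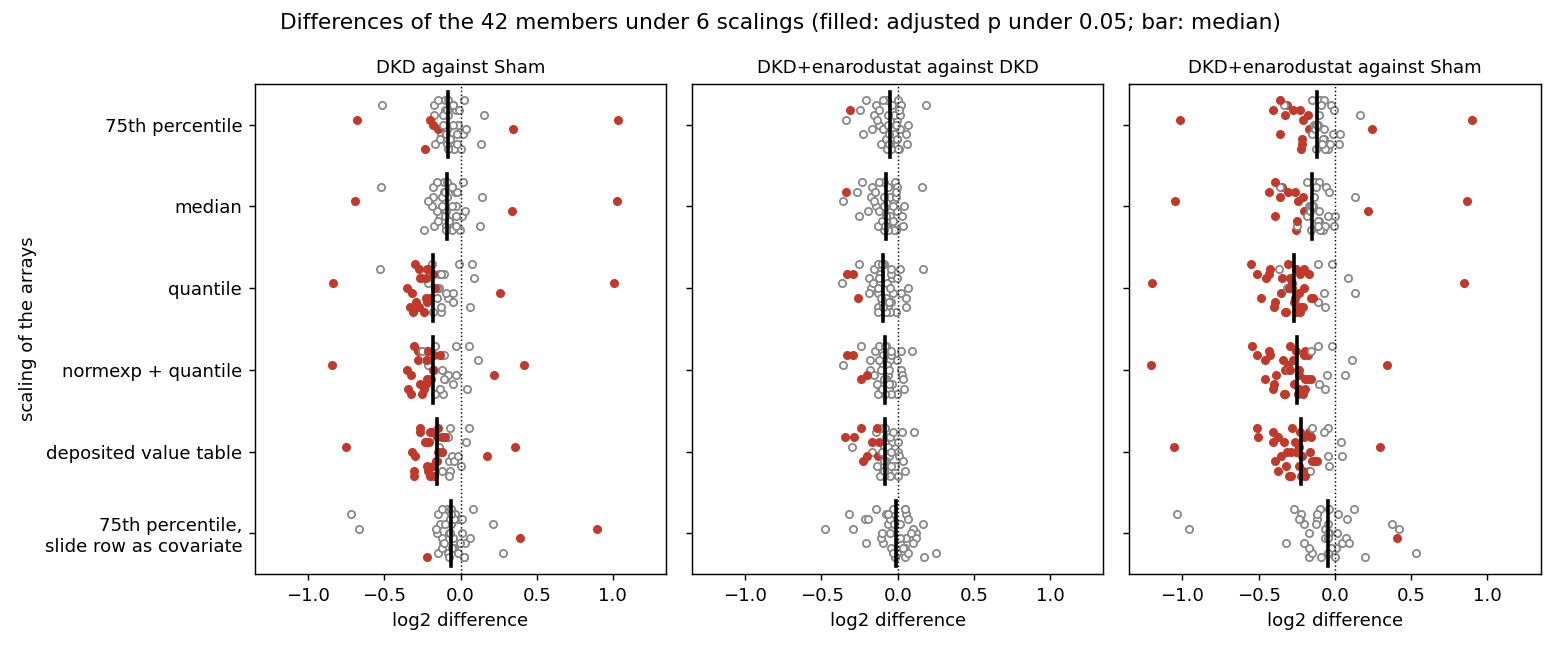
Each point is the log2 difference of 1 of the 42 members under 1 of 6 ways of scaling the arrays (rows), filled where the adjusted p is below 0.05; black bars mark the members' median. The bars sit at -0.08 and -0.18 for the 75th percentile and quantile scaling between DKD and Sham, and at -0.05 between DKD+enarodustat and Sham once slide row is a covariate.

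Other genes of the pathway followed lists chosen by function. Of 17 measured assembly factors of complex IV, 4 were lower in DKD than in Sham and none higher: Coa7 (-0.53 ± 0.10, adjusted p = 0.00182), Cox16 (-0.49, adjusted p = 0.00404), Taco1 (-0.42, adjusted p = 0.00534) and Pet100 (-0.29, adjusted p = 0.0124). That is 23.5%, beside 17.1% of all genes called in either direction and 9.07% called lower. The 4 also passed with slide row as a covariate. Coa5, another such factor, was lower with enarodustat than in DKD by 0.39 (SE 0.07, adjusted p = 0.00623). In the treated rats 6 of the 17 (35.3%) were lower than in Sham, beside 16% of all genes lower and 26.1% in either direction. With slide row as a covariate 0 of 17 passed in either comparison with the treated rats, beside 0.347% and 4.26% of all genes. Of 6 assembly factors of complex III 1 was called (16.7%, beside 17.1% of all genes), Ttc19, which was lower in DKD (-0.25, adjusted p = 0.0435). Of 6 factors and small proteins of ATP synthase 2 were called (33.3%, beside 17.1% of all genes). Atpif1, the inhibitor that blocks the enzyme from running backwards, was higher in DKD (0.32 ± 0.09, adjusted p = 0.0155). Usmg5, a small protein of the enzyme's membrane part, was lower (-0.23, adjusted p = 0.00855). Complex II, which feeds electrons from succinate, had 0 of 4 subunits called by limma between DKD and Sham and between DKD+enarodustat and DKD (0 and 1 at an unadjusted p under 0.05), and 1, Sdhd (-0.22, adjusted p = 0.0119), between DKD+enarodustat and Sham, which no longer passed once the row of the slide entered the fit (adjusted p = 0.527). Of 6 carriers and channels of the mitochondrial membranes 1 was called (16.7%, beside 17.1% of all genes). Slc25a4, which exchanges ADP for ATP, was lower in DKD (-0.29 ± 0.08, adjusted p = 0.0199). Of 12 regulators of mitochondrial biogenesis 2 passed (16.7%, beside 17.1% of all genes in either direction), so the share is near the background. Both were lower in DKD, as were 9.07% of all genes: Ppargc1b (-0.44 ± 0.12, adjusted p = 0.0216) and Nrf1 (-0.30, adjusted p = 0.039). Ppargc1a and Tfam differed by -0.21 (adjusted p = 0.285) and 0.17 (adjusted p = 0.0992).

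Genes that link HIF to respiration were the other list. HIF is known, in some cells, to exchange subunit Cox4i1 for Cox4i2 and to induce Ndufa4l2 and the protease Lonp1. Cox4i2 differed by 0.00 ± 0.31 between DKD+enarodustat and DKD, Ndufa4l2 by 0.38 ± 0.24 (adjusted p = 0.546) and Lonp1 by 0.06 ± 0.07 (adjusted p = 0.794), none past the test. The Cox4i2 probe followed the slide. It read 0.16 to 0.48 on slide 2, which held replicates 3 and 4 of every group, and 1.40 to 1.77 on the other slides. Higd1a, a small hypoxia-induced protein that binds complex IV, was lower in DKD than in Sham (-0.39 ± 0.13, adjusted p = 0.0424) and higher with enarodustat than in DKD (0.49 ± 0.12, adjusted p = 0.0361); neither passed once the row of the slide entered the fit (adjusted p = 0.0787 and 0.425). Mgarp, a mitochondrial protein of hypoxic cells, ran from -4.24 to -2.86 on the treated arrays and from -8.11 to -6.43 on the DKD arrays, where it was above background on 3 of 7. The treated arrays stood clear of both other groups. The fitted difference of 3.70 (adjusted p = 1.97e-07) sets them against a group mostly at background, so its size is not a measured one. It was 1.23 after normexp correction and quantile scaling, and passed there too (adjusted p = 3.54e-08).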

How the data were processed

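Renal cortex RNA was labelled with Cy3 and read in 1 colour on Agilent arrays and scanned into Agilent Feature Extraction (version 11.5.1.1, as the headers give it); the submitters' processing notes also name limma. The authors deposited 1 scanner file per array with processed signal intensity per spot, and a value table on a log2 scale whose normalisation is not given in the sources used here. The table's column medians were 8.13 to 8.21, and each of its 19 columns correlated best with the log2 intensity of its own array (0.984 to 0.989); it was used as an alternative.

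For each array the 75th percentile of log2 signal over the 58717 non-control spots was subtracted, outlier spots were left out and spots of a probe averaged. A probe was kept if well above background (in at least 50% of its spots) on at least 5 of 19 arrays, and each gene was represented by its kept probe of highest mean. A single limma model (version 3.58.1, R 4.3.3) covered the 3 groups (16 residual degrees of freedom), two-sided, with Benjamini-Hochberg adjustment over 24217 genes and a threshold of 0.05; the script was tested on simulated data. Probe coordinates are those of the array files (rn4). The number of arrays limits the precision. Replicates are separate rats, per the labels.

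Same-numbered arrays of different groups shared a slide in every pair, and their deviations from the group means correlated in every pair. The correlations were 0.133 to 0.594 for DKD and Sham, 0.142 to 0.419 for DKD+enarodustat and DKD and 0.136 to 0.472 for DKD+enarodustat and Sham. The same-numbered array correlated best in 3 of 5, 1 of 7 and 3 of 5 pairs. The numbers thus follow the slide, and no closer pairing is shown.

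The members and gene lists were chosen with earlier results of these data known. Values per array are given for members past the threshold, at most the 10 with the smallest adjusted p in a comparison, and for Cox4i1, Cycs, Cyc1, Cox7a2l, Ndufa4 and Atp5b; pathway lists are represented by up to 3 genes with the smallest adjusted p, Pet100, Nrf1 and the HIF-linked genes being named besides. Marker lists for testis (0 of 3 measured called by limma in DKD against Sham) and erythroid cells (0 of 4) were also read; 0 of each also passed an unadjusted p under 0.05.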

Additional observations from a re-analysis of the deposited data

Results flagged for a closer look

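Among the 126 sets of values formed by 42 members in 3 groups, 8 held an array that stood apart from its group by more than Dixon's 95% limit; chance gives about 1 in 20. The 8 lay on 8 different arrays. Cycs in DKD+enarodustat replicate 6 was 3.22, the nearest array of its group being at 4.62; the further Cycs probe on that array read 2.96, within its group. Cox6a2 in Sham replicate 2 was -5.01, the nearest Sham array being at -5.46. Uqcrfs1, the Rieske iron-sulphur protein of complex III, was 3.18 in DKD+enarodustat replicate 4 against 3.48 for the nearest. Uqcr10 was 6.03 in Sham replicate 1 against 6.21. Cox7a2 was 5.12 in DKD replicate 3 against 4.99. Atp5a1 was 7.29 in Sham replicate 4 against 7.08. Atp5g2 was 5.23 in DKD+enarodustat replicate 7 against 5.36. Atp5g3 was 2.29 in Sham replicate 3 against 2.50.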

How the results depend on the processing

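No member that passed in the 3 comparisons above was called in the opposite direction under any alternative run. Cox6c, not called above, differed by 0.03 between DKD+enarodustat and Sham. It was called lower there under both quantile scalings and in the deposited value table. Members called in DKD against Sham (7) numbered 22 with quantile normalisation or normexp and quantile normalisation, 27 in the deposited value table, 3 with median centring, with no filter on dim probes, with slide row as a covariate, within slide row 1 and without DKD replicates 2 and 4, and 0 within slide 1 or 2; the median (-0.08) was -0.18 under both quantile scalings, -0.15 in the value table and -0.028 within slide 1. In DKD+enarodustat against DKD the count (1) was 3, 4 and 9 under those 3 scalings, 3 with the slide as a block and 0 with slide row as a covariate, within slides 1, 2 and 3 and within slide row 2. In DKD+enarodustat against Sham the count (16) was 33, 33 and 34, 1 with slide row as a covariate and 0 within slides 1 and 2, and the median (-0.12) was -0.27, -0.25, -0.23, -0.046 with slide row and -0.18 within slide 2. Single slides hold 1 to 3 arrays a group.

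Over all genes, DKD against Sham (4140 called) gave 0 within slide 1 and 2 within slide 2. DKD+enarodustat against DKD (485) gave 284 with no filter, 291 with median centring, 1770 in the value table, 915 with the slide as a block, 84 with slide row as a covariate, 1, 0 and 0 within slides 1, 2 and 3 and 12 within slide row 2. DKD+enarodustat against Sham (6311) gave 10744 with no filter, where 6919 genes were higher, 1031 with slide row as a covariate, and 14 and 46 within slides 1 and 2.

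Leaving out each array in turn gave 3 to 7, 1 to 2 and 12 to 17 members called in the 3 comparisons and medians of -0.10 to -0.06, -0.07 to -0.02 and -0.14 to -0.10; over all genes 3156 to 4339, 286 to 497 and 5175 to 6513 were called. In DKD against Sham 3 members passed without Sham replicate 3, Sham replicate 4 or DKD replicate 5, and 4 without Sham replicate 5, DKD replicate 2 or DKD replicate 4. In DKD+enarodustat against DKD 2 members passed without DKD replicate 4, and 286 genes without DKD replicate 6.

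With the replicate number as a block, 6, 2 and 14 members were called in the 3 comparisons, and 4555, 644 and 7138 genes. Alternatives within slide row 2, without DKD replicates 2 and 4 and without DKD+enarodustat replicate 6 were chosen after seeing the data. Where a count moved, the cause was not tested. Depth, here signal over background, limits the dim members: between DKD and Sham, the differences of Cox6a2 and Cox8b were 1.03 and -0.51, 1.01 and -0.53 with quantile normalisation, and 0.42 and -0.25 with normexp and quantile normalisation.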
